A study of Mus musculus with 10 samples.

Results

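The 10 genes described here are the mouse gene for the transcription factor Nrf2 (Nfe2l2), its cytosolic inhibitor Keap1, and 8 antioxidant genes that Nrf2 is known to activate: Hmox1, Nqo1, Gclc, Gclm, Gsr, Txnrd1, Srxn1 and Slc7a11. They were chosen by gene name among the 78317 genes listed, as a pathway, by someone who already knew the levels of these genes in the same 10 libraries. The group differences below are therefore descriptions of these libraries and no independent test of the pathway. RNA was sequenced from small tissue punches of the medial prefrontal cortex (mPFC) of wild-type mice, after enrichment for polyadenylated RNA. The 5 control libraries (numbers 3, 4, 5, 7 and 9) came from mice injected with a control adeno-associated virus (AAV), a gene delivery vector. The 5 miR-130a libraries (numbers 13, 14, 15, 17 and 18) came from mice given an AAV that overexpresses the microRNA miR-130a-3p. Both groups thus carried a virus, and the tissue was labelled as mixed cell types. The promoter of the vectors, the age of the mice, the time after injection and the number of mice behind each library are not given in the sources used here, so the p-values measure only the spread between libraries, which may be technical.

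Nrf2 is made constantly and destroyed constantly: Keap1 holds it in the cytosol and presents it to a Cul3 ubiquitin ligase. Oxidants and electrophiles modify cysteines of Keap1, Nrf2 escapes to the nucleus, pairs with a small Maf protein and binds antioxidant response elements in its target genes, where the repressor Bach1 competes with it. Because this control acts on the protein, the mRNA level of Nfe2l2 does not give the activity of Nrf2. In brain the pathway is best known from glia: astrocytes supply neurons with glutathione precursors through Nrf2 targets, and microglia and macrophages induce Hmox1 when they take up heme.

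The overexpressed microRNA pairs with messages through its seed, bases 2 to 8 from its 5′ end, so the seed and the 3 sites found in the members are shown first. The mature mouse sequence from RefSeq (GRCm38.p6) has 22 bases, with the seed in capitals.
mmu-miR-130a-3p: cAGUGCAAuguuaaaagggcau
The 3′ untranslated region of each member (the longest in the GENCODE M21 annotation of GRCm38) was searched for TTGCACT, which pairs with bases 2 to 8, and for TGCACTA, which pairs with bases 2 to 7 and ends in an A. TTGCACT was found in 0 of the 10 members. TGCACTA was found at 1 place in Gclc and 2 places in Srxn1. The capitals mark the match, and each site is shown with its neighbouring bases.
Gclc, match from base 886 after the stop codon: tcaatcatgaaaTGCACTAattt
Srxn1, match from base 144 after the stop codon: tcttggtgcctcTGCACTAgctc
Srxn1, match from base 1386 after the stop codon: ttaaagaaggtgTGCACTActat
Among 13275 tested genes with an annotated region, 11.9% held TTGCACT, 7.44% held TGCACTA and 16% held either. The searched regions of Nfe2l2 and Hmox1 were short, 448 and 570 bases, beside a median of 1225 bases. The long regions of Gclm (4335 bases) and Slc7a11 (7364 bases) held neither match. A match is a description of letters and no evidence of binding.

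The libraries differed beyond the 10 genes. Values were TPM, a transcript level corrected for gene length and scaled so that every library sums to the same total, so a large change in some genes moves all others. Between 24130 and 26429 genes lay above 0, and no libraries held identical values. Of 15680 genes with a mean of at least 1 TPM, 2110 differed between the groups at an adjusted p under 0.05 (13.5%). Of all tested genes, 11.3% were lower and 2.19% were higher with miR-130a, and the median difference over all genes was −0.09 on the log2(TPM + 1) scale. This split depends on the scaling: quantile normalization gave 1046 lower and 1071 higher genes with a median of 0.05, and median-ratio scaling 1192 and 862 with a median of 0.01. Control libraries 7 and 9 carried the most signal from immune markers, which is described further on. The gene that encodes miR-130a, Mir130a, was listed at 0 in all 10 libraries, as were all 2206 microRNA genes in the table, so these values do not check the overexpression.

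Nfe2l2 mRNA (ENSMUSG00000015839) was separated completely between the groups, with miR-130a the lower. It stood at 24.29, 20.77, 25.18, 28.47 and 31.92 TPM in control libraries 3, 4, 5, 7 and 9. It stood at 10.48, 10.36, 11.82, 11.22 and 11.31 TPM in miR-130a libraries 13, 14, 15, 17 and 18. The control libraries were spread widely, with library 9 highest, and the miR-130a libraries lay close together. The mean fell from 26.1 ± 4.24 to 11.04 ± 0.610 TPM (SD, n = 5 each), 2.37-fold lower, and the coefficient of variation was 16.2% in the controls and 5.53% with miR-130a. The difference on the log2(TPM + 1) scale was −1.16 (SE 0.113, 95% interval −1.41 to −0.91), with an adjusted p of 0.000503 in limma's moderated test over all genes. Relative to the median of all genes the difference was −1.06. By p-value Nfe2l2 ranked 9 of 15680 tested genes, and by size of fall 394 of the 1767 genes called lower.

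Hmox1 (ENSMUSG00000005413), which encodes the inducible heme oxygenase that splits heme into biliverdin, carbon monoxide and iron, was also lower in every miR-130a library. Its control values were 13.21, 11.00, 13.44, 19.49 and 18.66 TPM. Its miR-130a values were 6.43, 4.33, 5.25, 6.47 and 7.80 TPM. Controls 7 and 9 stood above the other 3 controls, and the lowest control still exceeded the highest miR-130a library. The mean fell from 15.2 ± 3.71 to 6.06 ± 1.32 TPM, 2.503-fold lower, with a log2 difference of −1.19 (SE 0.177, 95% interval −1.57 to −0.80, limma adjusted p of 0.0021), or −1.09 relative to the median of all genes. The ratio of Hmox1 to Hmox2, the heme oxygenase made constantly, was 0.101 to 0.218 in the controls and 0.0512 to 0.0951 with miR-130a.

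**Figure D1:**
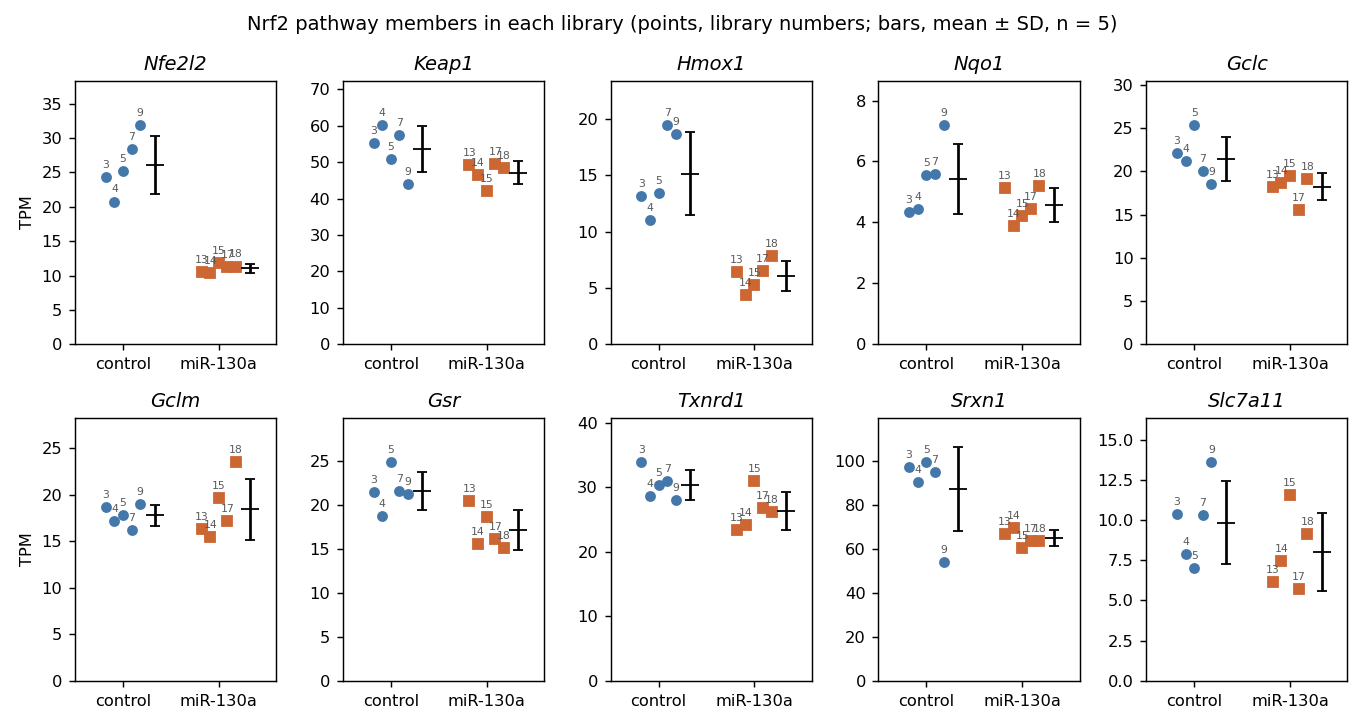
Level of each of the 10 members in TPM (vertical axes, each from 0) in the 5 control libraries (circles) and the 5 miR-130a libraries (squares), labelled by library number, with mean ± SD beside them. The groups are apart for Nfe2l2 and Hmox1 and overlap for the other 8, and Srxn1 has control library 9 far below the other controls.

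Those were the only members that passed the threshold in the fit with all libraries: 2 of 10 were lower, none higher, and 8 were not called, beside 11.3% of all tested genes lower. At an unadjusted p under 0.05 stood 4 members, all lower, beside 28.4% of all tested genes (22% lower). The same 2 members had groups whose ranges did not overlap, and over all tested genes 9.46% were separated that way with miR-130a lower and 1.85% with miR-130a higher. In 9 of 10 members the difference was negative, and the median over the members was −0.25, beside −0.09 over all genes. Because the median of all genes was itself negative, the sign alone does not set the members apart. Below that median lay 9 of the 10 members, a count that was not tested.

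Keap1, the inhibitor, was not called. It measured 55.39, 60.27, 50.99, 57.6 and 44.07 TPM in the controls and 49.34, 46.43, 41.99, 49.52 and 48.3 TPM with miR-130a. The groups overlapped only through control 9, and the other controls lay above every miR-130a library. The log2 difference was −0.18 (95% interval −0.39 to 0.04, limma adjusted p of 0.266). The ratio of Nfe2l2 to Keap1 mRNA was 0.499 ± 0.140 in the controls (0.345 to 0.724) and 0.236 ± 0.0268 with miR-130a (0.212 to 0.281). The groups' ratios lay apart, and the highest was that of control 9, with the highest Nfe2l2 and the lowest Keap1 of the controls.

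The cystine and glutathione genes showed small differences. Slc7a11, the cystine importer that feeds glutathione synthesis, measured 10.39, 7.86, 6.99, 10.3 and 13.63 TPM in the controls and 6.13, 7.47, 11.57, 5.72 and 9.15 TPM with miR-130a. Its groups overlapped through most of their range (log2 difference −0.27, 95% interval −0.72 to 0.17, limma adjusted p of 0.418). Gclc and Gclm encode the catalytic and the modifier subunit of glutamate-cysteine ligase, the limiting step of glutathione synthesis. Gclc measured 22.1, 21.21, 25.37, 20.08 and 18.52 TPM in the controls and 18.22, 18.69, 19.51, 15.53 and 19.08 TPM with miR-130a. Its difference was −0.22 (95% interval −0.45 to 0.00, limma adjusted p of 0.18), and control 9 was the 1 control inside the miR-130a range. Gclm was the one member with a positive difference, 0.04 (95% interval −0.22 to 0.29, limma adjusted p of 0.882). It measured 18.69, 17.19, 17.82, 16.26 and 19.04 TPM in the controls and 16.33, 15.44, 19.64, 17.24 and 23.58 TPM with miR-130a, where library 18 stood highest. The intervals of both subunits leave out a fall of the size seen for Nfe2l2.

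Gsr, the reductase that returns oxidized glutathione to its reduced form with NADPH, measured 21.44, 18.73, 24.92, 21.58 and 21.22 TPM in the controls. It measured 20.42, 15.58, 18.58, 16.17 and 15.05 TPM with miR-130a. Of the miR-130a libraries, only 13 exceeded the lowest control (library 4). The difference was −0.32 (95% interval −0.55 to −0.08), with a limma adjusted p of 0.0764 over all genes.

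Of the 2 members of the thioredoxin system, Srxn1 and Txnrd1, Srxn1 had the larger difference. It encodes sulfiredoxin, which repairs over-oxidized peroxiredoxins, and was the most abundant member in both groups. It measured 97.47, 90.41, 99.82, 95.17 and 53.91 TPM in the controls and 66.93, 69.7, 60.3, 63.8 and 63.85 TPM with miR-130a. The other 4 controls lay above every miR-130a library, and control 9 lay below all of them. With all libraries the means were 87.4 ± 19.0 and 64.9 ± 3.56 TPM and the log2 difference was −0.39 (95% interval −0.73 to −0.06, limma adjusted p of 0.117). Without control 9 the difference was −0.55 with an adjusted p of 0.00134. Srxn1 is also the member with 2 TGCACTA matches shown above, and the part of those letters in its level was not tested.

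Txnrd1, the cytosolic thioredoxin reductase, measured 34.01, 28.7, 30.31, 31.06 and 28.04 TPM in the controls and 23.46, 24.13, 30.95, 26.82 and 26.15 TPM with miR-130a. Only miR-130a library 15 reached the control range (log2 difference −0.21, 95% interval −0.42 to 0.00, limma adjusted p of 0.184). Nqo1, a quinone reductase and a classical Nrf2 reporter gene, was the least abundant member. It measured 4.33, 4.43, 5.55, 5.58 and 7.2 TPM in the controls and 5.13, 3.89, 4.21, 4.45 and 5.18 TPM with miR-130a. Its groups overlapped (log2 difference −0.19, 95% interval −0.50 to 0.11, limma adjusted p of 0.409).

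**Figure D2:**
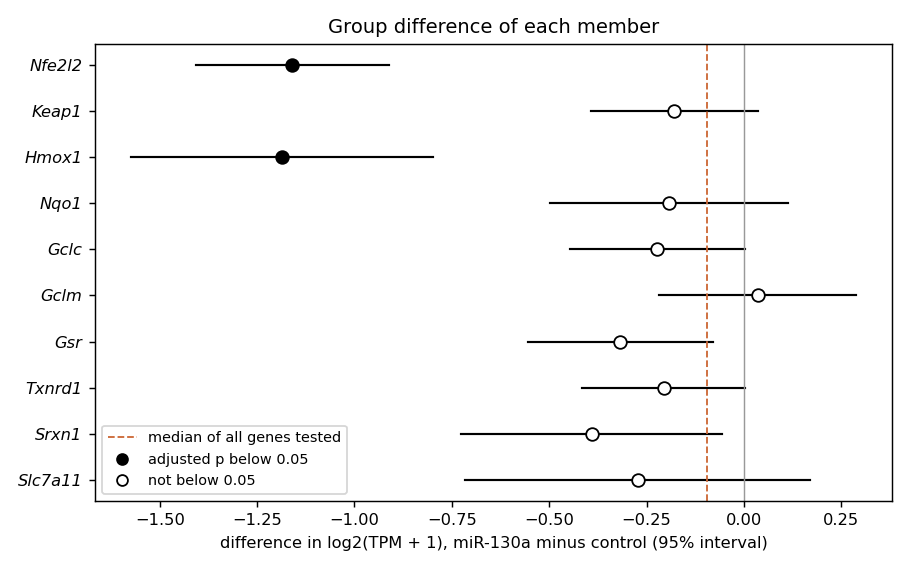
Difference between the groups for each member (horizontal axis, log2(TPM + 1), miR-130a minus control), with points at the estimate and lines for the 95% interval of the whole-table fit; filled points had an adjusted p below 0.05 and the dashed line is the median of all genes tested, −0.09. Nfe2l2 and Hmox1 lie near −1.2, and the other 8 lie between −0.39 and 0.04.

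By level, the controls ran from Srxn1 (87.4 TPM) through Keap1 (53.7), Txnrd1 (30.4), Nfe2l2 (26.1), Gsr (21.6), Gclc (21.5), Gclm (17.8), Hmox1 (15.2) and Slc7a11 (9.83) to Nqo1 (5.42). Of the neighbours in that order, only Keap1 and Txnrd1 had ranges that did not overlap. With miR-130a the order was Srxn1, Keap1, Txnrd1, Gclm, Gclc, Gsr, Nfe2l2, Slc7a11, Hmox1 and Nqo1. Nfe2l2 moved from the fourth to the seventh place and lay apart from Gsr just above it.

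Control 9 was the highest control for 4 members (Nfe2l2, Nqo1, Gclm and Slc7a11) and the lowest for 4 (Keap1, Gclc, Txnrd1 and Srxn1). Hmox1 was highest in control 7. Leaving out controls 7 and 9 together lowered the Nfe2l2 control mean to 23.4 ± 2.33 TPM (n = 3), 2.12-fold above the miR-130a mean, and the Hmox1 control mean to 12.6 ± 1.35 TPM, 2.07-fold above it. The limma adjusted p was then 0.00316 for Nfe2l2 and 0.0095 for Hmox1. Srxn1 also passed (difference −0.56, adjusted p of 0.00466), which made 3 members lower, where 15.6% of all tested genes were lower. Without control 9 alone, 4 members were lower: Nfe2l2, Hmox1, Srxn1 and Keap1 (difference −0.25, adjusted p of 0.047). The share of all tested genes called lower was then also larger, 18.6%.

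Cell type markers moved with the same libraries. The summed level of 8 microglial markers, of which 7 were lower, was 1165 to 2222 TPM in the controls and 465 to 686 TPM with miR-130a. Markers of border and monocyte-derived myeloid cells (2 lower of 4 tested) summed to 26.4 to 154 TPM in the controls and 5.98 to 22.6 TPM with miR-130a, and lymphoid markers (4 lower of 6 tested) to 13.4 to 103 and 2.31 to 12.7 TPM. The myeloid sum was mostly Ly6c2 (52.2 ± 45.8 and 5.16 ± 3.71 TPM) and Plac8 (15.7 ± 13.2 and 2.07 ± 2.27 TPM), its 2 genes called. Its border macrophage markers were low, were not called or not tested, and differed in direction. Mrc1 was 2.53 ± 1.23 and 1.24 ± 0.413 TPM (limma adjusted p of 0.101), and Pf4 was 2.49 ± 1.11 and 3.68 ± 1.36 TPM. Lyve1 was 0.326 ± 0.204 and 0.294 ± 0.170 TPM, and Cd163 was 0.396 ± 0.159 and 0.394 ± 0.210 TPM. In all 3 sums controls 7 and 9 were the highest. Tmem119, a defining microglial marker, was 43.35 to 52.38 TPM in the controls and 24.07 to 34.7 TPM with miR-130a, and P2ry12 was the microglial marker not called. In a tissue punch, fewer cells of a type and less RNA per cell cannot be told apart.

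Reactive astrocyte markers such as Gfap, all 6 of which were lower, summed to 445 to 937 TPM in the controls and 116 to 244 TPM with miR-130a. Of 7 general astrocyte markers, none was called, and their sums overlapped (1377 to 1708 and 1516 to 1905 TPM). The largest part of that sum was Aldoc, at 711 ± 94.0 TPM in the controls and 883 ± 169 TPM with miR-130a. In 5 of the 7 the difference was negative, and the list's median was −0.26. Sox9 was 13.47 to 17.8 TPM in the controls and 9.15 to 13.46 TPM with miR-130a (limma adjusted p of 0.054). Endothelial markers (5 of 6 lower) summed to 168 to 189 and 114 to 149 TPM, and mural and fibroblast markers (6 of 8 lower) to 210 to 297 and 125 to 181 TPM. The largest part of the mural and fibroblast sum was Vtn (128 ± 12.2 and 73.6 ± 12.6 TPM). Rgs5 (29.5 ± 5.57 and 30.4 ± 7.53 TPM) and Lum were the markers of that list not called. Of the excitatory neuron, oligodendrocyte, oligodendrocyte precursor and blood markers, none was called. Inhibitory neuron markers had 2 of 6 higher, Sst (645 ± 30.4 and 1065 ± 182 TPM), which makes up most of their sum, and Vip, while Gad1, Gad2, Slc32a1 and Pvalb were not called and overlapped, and striatal markers had 1 of 5 lower. The choroid plexus list had 1 of 5 markers tested, summing to under 5 TPM in every library. No marker in any list was at 0 in all libraries. The share of signal from mitochondrially encoded genes was 13.04% to 16.4% in the controls and 16.0% to 19.9% with miR-130a. The part of these differences in the levels of Nfe2l2, Hmox1 and the other members was not tested.

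**Figure D3:**
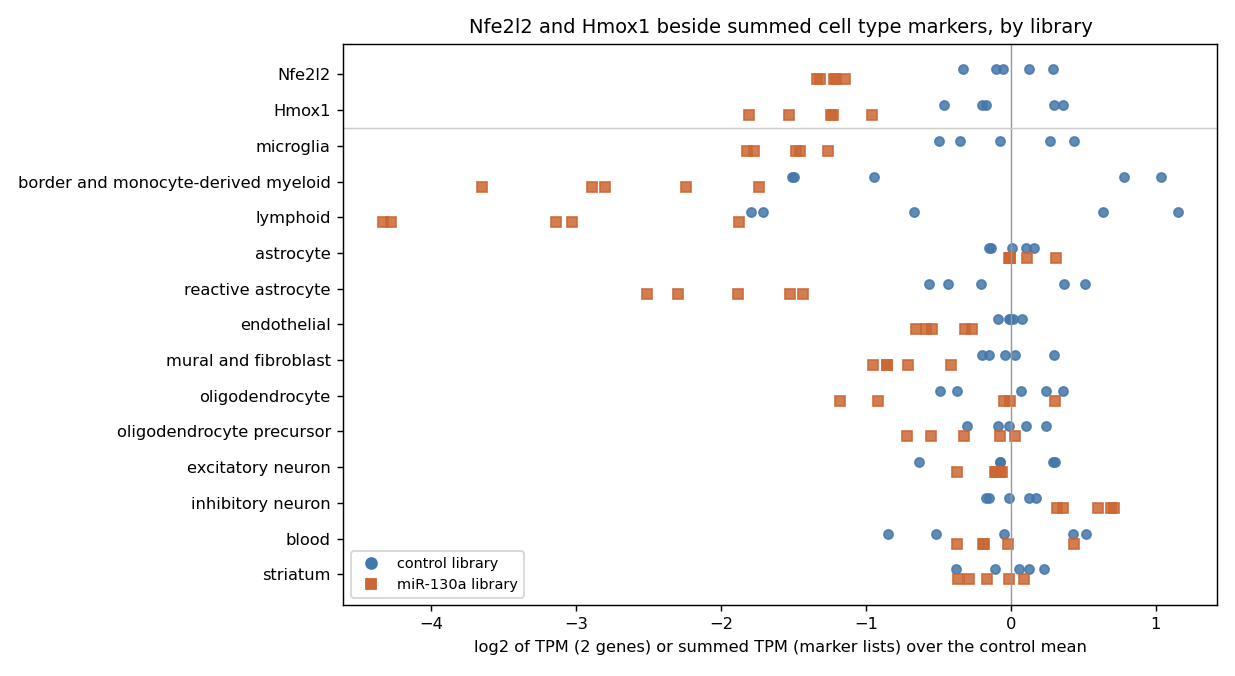
Nfe2l2 and Hmox1 (top) and the summed level of each cell type marker list (below; the choroid plexus list is not drawn) in each library, as log2 of the level over the control mean; circles are control and squares miR-130a libraries. The miR-130a libraries lie left of all controls for Nfe2l2, Hmox1, microglial, myeloid, lymphoid, reactive astrocyte, endothelial and mural lists, lie right of them for the inhibitory neuron list, whose sum is mostly Sst, and overlap the controls for general astrocyte, excitatory neuron and blood lists. The largest part of the general astrocyte sum is Aldoc, and that of the mural sum is Vtn.

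Among the genes whose level followed Nfe2l2 most closely over all 10 libraries were Tgfbr2 (Pearson r of 0.994), Nckap1l (0.992), Sp110 (0.992) and Tlr2 (0.991). After each group's mean was subtracted they included Ifngr1 (0.986), Cxcr4 (0.975), Arpc1b (0.971) and Cd86 (0.962). Tlr2 is a toll-like receptor of innate immune cells, and Cd86 is a costimulatory protein of antigen-presenting cells. Those that followed Hmox1 most closely included Edem2 (0.988), Spi1 (0.985), Msn (0.985) and Bgn (0.983), and after subtraction Rps6ka1 (0.957), Tmem198b (0.948), Tagln2 (0.932) and Edem2 (0.930). Spi1 encodes a transcription factor of the macrophage lineage. These values describe 10 libraries that share the group difference and the total of each library. After subtraction, the values for Nfe2l2 rest mostly on the controls. There its coefficient of variation was 16.2%, beside 5.53% with miR-130a.

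Among the members, Hmox1 was the closest to Nfe2l2 (r of 0.958 over all libraries and 0.75 after subtraction of the group means). After subtraction Nqo1 (0.738) and Slc7a11 (0.631) also followed Nfe2l2, while Keap1 (−0.71) and Srxn1 (−0.68) ran the opposite way. Control 9 had the highest Nfe2l2 and the lowest Keap1 and Srxn1 of the controls, with Srxn1 far below the other controls. After subtraction, the values for Nfe2l2 rest mostly on the controls, because it varied little among the miR-130a libraries. How far they rest on control 9 was not tested. Gclm did not follow Nfe2l2 over all libraries (−0.04).

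Antioxidant response elements have a core of TGACNNNGC, and promoter windows from RefSeq (GRCm38.p6, 250 bases before to 50 after each annotated start) were searched for it on both strands. Windows were found for 7 of the 10 members, 9 windows in all because Txnrd1 has 3, and Hmox1, Gclc and Gsr had none. The core was in 4 of 9 windows (Nfe2l2, Gclm, Srxn1 and 1 of Txnrd1), beside 12.4% of 32851 windows of the same length. The stretches that hold it are shown because Nrf2 is known to bind such a core, and Nfe2l2 itself has 1 in its window. Each reads 5′ to 3′ on the gene's strand with the match in capitals. The start site is counted as base 1, so the Srxn1 match after the start begins at base 29. The minus strand given for Nfe2l2 is that of the gene on its chromosome, and its match lies on the gene's own strand.
Nfe2l2, 240 bases before the start, minus strand, chr2:75704875-75704913: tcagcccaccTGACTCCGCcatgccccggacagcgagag
Gclm, 134 bases before the start, match on the opposite strand, chr3:122245403-122245451: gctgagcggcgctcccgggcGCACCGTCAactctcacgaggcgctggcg
Txnrd1, 92 bases before 1 of its 3 starts, match on the opposite strand, chr10:82859094-82859142: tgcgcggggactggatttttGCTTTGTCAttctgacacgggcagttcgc
Srxn1, 29 bases after the start, match on the opposite strand, chr2:152105532-152105573: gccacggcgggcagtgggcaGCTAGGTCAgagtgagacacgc
The same core followed by an A was in 1 of 9 windows, that of Txnrd1, beside 3.04% of all windows. A wider form, TGANNNNGC, was added after the first search and was in 7 of 9 windows, beside 41.3% of all. Srxn1 held 4 such matches, 1 of which also contains the AP-1 motif TGANTCA and begins 45 bases before the start.
Srxn1, chr2:152105459-152105507: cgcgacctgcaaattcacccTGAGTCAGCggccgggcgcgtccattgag
Of the 4 genes with the TGACNNNGC core in a window, Nfe2l2 was called lower and Gclm, Txnrd1 and Srxn1 were not called. A match names letters in a short window, and functional elements of these genes may lie outside it.

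The wider pathway was followed through 8 lists of 98 genes, of which 96 were tested; 25 were lower (26%) and 1 was higher, beside 11.3% and 2.19% of all tested genes. Without the phagocyte oxidase list, which is not a set of Nrf2 targets, 18 of 89 were lower (20.2%). The counts of the single lists that follow are descriptions to be set beside the same 11.3%. These lists were drawn up with earlier results of the same libraries known. The 2 genes not tested were Gpx2, under 1 TPM, and Nnt, which the table lists under more than 1 identifier.

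Of 13 partners and regulators of Nrf2, 3 were lower. Maff, a small Maf protein that pairs with Nrf2, fell from 2.62 ± 0.533 to 1.04 ± 0.242 TPM (limma adjusted p of 0.00574). Trim21, a ubiquitin ligase of the antiviral response that also acts on the Keap1-binding protein p62, fell from 5.94 ± 1.81 to 2.24 ± 1.184 TPM (0.0099). Bach1, the repressor that competes with Nrf2, fell from 5.39 ± 1.10 to 3.34 ± 0.624 TPM (0.0366), a call lost in 12 of 18 alternatives. The ratio of Bach1 to Nfe2l2 was 0.182 to 0.267 in the controls and 0.247 to 0.354 with miR-130a, ranges that overlapped. Cul3, Mafg, Mafk and Nfe2l1, the close relative of Nfe2l2, were not called. Rbx1, the ring subunit of the Cul3 ligase, was 99.4 ± 2.97 and 124 ± 17.7 TPM (0.0574). Its ranges did not overlap (94.21 to 101.7 TPM in the controls, 107.21 to 153.27 TPM with miR-130a), and it was called higher in 6 of 19 alternatives. The list's median difference was −0.17.

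Of 22 other genes of glutathione synthesis and use, 1 was lower. Gpx8, a glutathione peroxidase of the endoplasmic reticulum, fell from 12.6 ± 4.97 to 6.36 ± 1.38 TPM (limma adjusted p of 0.0239), a call lost in 7 of 19 alternatives. Gpx1, the main cytosolic glutathione peroxidase, was 154 ± 15.6 and 125 ± 11.96 TPM (0.0659). Gsta4, a transferase that clears lipid aldehydes, was 84.9 ± 10.7 and 113 ± 19.2 TPM (0.063), and Gstm7 21.2 ± 4.69 and 28.6 ± 5.03 TPM (0.111). Anpep, an ectopeptidase, was 9.11 ± 4.81 and 3.91 ± 1.92 TPM (0.0764). Of 19 alternatives, Gsta4 was called higher in 4 and Gstm7 in 1, while Gpx1 was called lower in 1 and Anpep in 2. The list's median was −0.06, beside −0.09 over all genes.

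Of 16 thioredoxin and peroxiredoxin genes, 3 were lower and the median was 0.01. Txnip, which binds and inhibits thioredoxin and responds to glucose, fell from 26.4 ± 6.09 to 12.2 ± 3.51 TPM (limma adjusted p of 0.0046). Sesn2, a stress-induced sestrin, fell from 10.99 ± 1.74 to 7.06 ± 0.595 TPM (0.0114), a call lost under quantile normalization (0.0631). Prdx6, a peroxiredoxin abundant in astrocytes, fell from 373 ± 99.2 to 223 ± 29.1 TPM (0.0145), a call lost under median-ratio scaling (0.0655). Txn1, thioredoxin itself, was 63.5 ± 17.7 and 78.5 ± 8.62 TPM (0.223), called higher in 1 of 19 alternatives. Of 5 superoxide and peroxide genes, 1 was lower: Sod3, the extracellular superoxide dismutase, fell from 9.74 ± 0.722 to 5.92 ± 1.182 TPM (0.00721), a call lost under quantile normalization (0.068). Sod1 was 635 ± 60.5 and 732 ± 113 TPM (0.301), Cat 28.2 ± 2.495 and 23.7 ± 1.83 TPM (0.108), and the list's median was −0.07.

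Of 8 tested genes that supply NADPH, the reductant used by Gsr, Txnrd1 and Nqo1, 2 were lower and 1 was higher. Pgd, an oxidative enzyme of the pentose phosphate pathway, fell from 42.6 ± 2.12 to 28.7 ± 2.59 TPM (limma adjusted p of 0.00259). Taldo1, of the same pathway's sugar rearrangements, fell from 146 ± 5.74 to 113 ± 8.94 TPM (0.0114), a call lost under median-ratio scaling (0.116). Idh1, the cytosolic isocitrate dehydrogenase, rose from 26.9 ± 1.47 to 36.9 ± 4.41 TPM (0.0121). The list's median was −0.18.

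Of 10 genes of heme and iron handling beside Hmox1, 3 were lower and all 10 differences were negative. Their median was −0.19, beside −0.09 over all genes. Relative to the median of all genes, Flvcr1 was positive (0.03), and Blvra (−0.004) and Fth1 (−0.02) were close to it. Ftl1, the ferritin light chain that stores the iron heme oxygenase releases, fell from 1077 ± 236 to 583 ± 67.7 TPM (limma adjusted p of 0.0038). Slc48a1, a heme transporter, fell from 159 ± 26.6 to 101 ± 5.13 TPM (0.0044). Blvrb, a biliverdin reductase, fell from 20.6 ± 3.33 to 12.6 ± 1.71 TPM (0.00681). Fth1, the ferritin heavy chain, was 4995 ± 484 and 4639 ± 660 TPM (0.598). Ferritin genes have processed pseudogenes, so how their reads were divided is uncertain.

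Of 15 other reported Nrf2 targets tested, 5 were lower, none higher, and the median was −0.27, beside 11.3% and −0.09 over all genes. Ephx1, the microsomal epoxide hydrolase, fell from 39.4 ± 4.80 to 22.2 ± 4.15 TPM (limma adjusted p of 0.00364). Ugt1a6a, a glucuronosyltransferase that shares exons with its neighbours and so has an uncertain read split, fell from 4.11 ± 1.19 to 1.85 ± 0.474 TPM (0.0109). Abcc4, an exporter of organic anions, fell from 4.52 ± 0.542 to 2.83 ± 0.295 TPM (0.0131), a call lost under quantile normalization (0.102). The remaining 2, named after their values were seen, were the fatty aldehyde dehydrogenase Aldh3a2 (33.2 ± 4.56 to 23.0 ± 2.86 TPM, 0.0147) and Osgin1 (1.63 ± 0.380 to 0.768 ± 0.175 TPM, 0.0362). Under median-ratio scaling 4 genes of the list were lower, and Ephx1, Ugt1a6a and Abcc4 stayed called. The calls of Aldh3a2 and Osgin1 thus did not both hold there. Esd had the largest positive difference, 145 ± 8.52 and 154 ± 16.6 TPM (0.61).

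The phagocyte NADPH oxidase, which makes superoxide in microglia and other phagocytes, was followed as a source of oxidants. All 7 of its genes were lower, with a median of −1.62. Ncf1 fell from 20.6 ± 5.39 to 6.65 ± 1.63 TPM (limma adjusted p of 0.00115). Hvcn1, the proton channel that balances its charge, was lower with miR-130a, at 3.01 to 6.54 TPM, than in the controls, at 10.3 to 28.33 TPM (0.00448). Cybb, the catalytic subunit, fell from 12.7 ± 9.96 to 1.17 ± 0.753 TPM (0.00581). These falls were larger than those of Nfe2l2 and Hmox1 on the log2 scale in every one of the 7 genes, a difference between genes that was not tested.

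**Figure D4:**
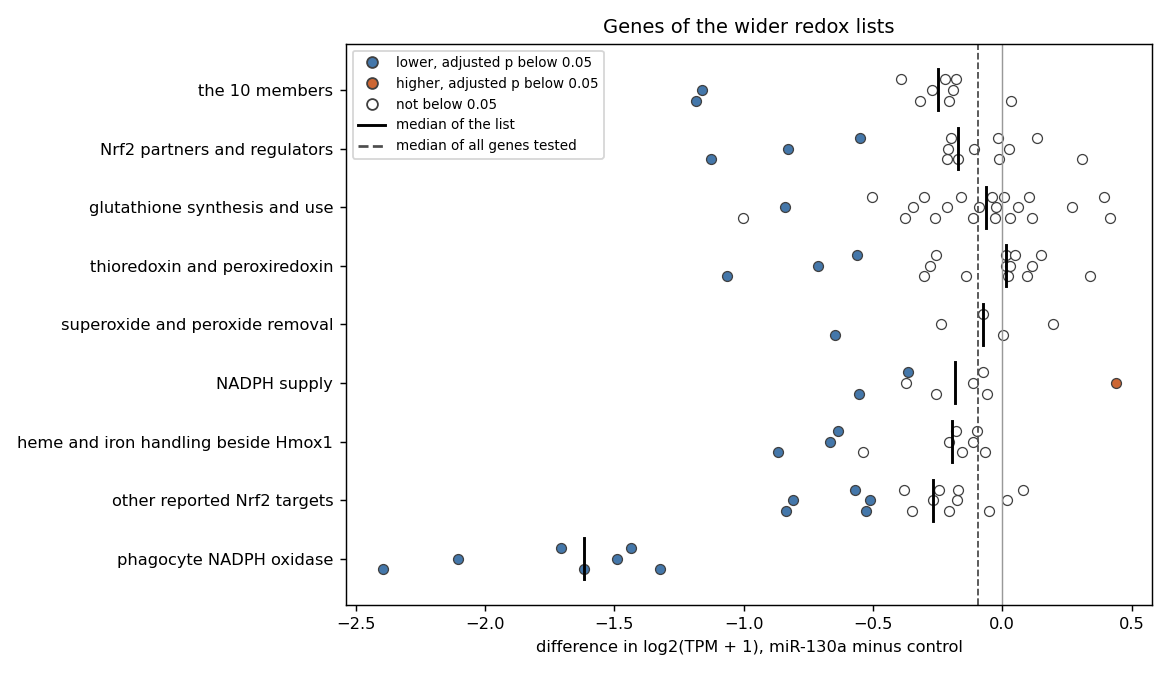
Difference between the groups (horizontal axis, log2(TPM + 1), miR-130a minus control) for every tested gene of the members and of the 8 wider lists, 1 point a gene; filled points had an adjusted p below 0.05 (blue lower, orange higher), black bars are list medians and the dashed line is the median of all genes. All 7 phagocyte oxidase genes lie below −1.3, while the glutathione and thioredoxin lists centre near 0.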

How the data were processed

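Per the submitters' processing notes, the tools named were fastp, HISAT2, RSEM and DESeq2 with the GRCm39 build, with no versions or roles; strand use and the counting of shared reads are not given in the sources used here. The deposited file holds TPM per gene, a level per length and library total made by the authors, so depth is unknown and no count model was used. Libraries took their groups from the labels' titles. log2(TPM + 1) was fitted with limma 3.58.1 (lmFit, eBayes with trend; R 4.3.3) over all 10 libraries for 15680 genes with a mean of at least 1 TPM, p-values were adjusted by Benjamini-Hochberg and called under 0.05, and the fit was checked on simulated data. A fold is the ratio of mean TPM. The log2 difference understates changes of low genes. The members and lists were chosen with earlier results of these data known. Named genes are all members, the 3 lowest p-values and the largest rise and fall of each wider list, and the 5 genes most like Nfe2l2 and Hmox1; single marker genes and a few uncalled list genes were named after their values were seen. A few genes that this rule names are not reported here. Alternatives covered pseudocount, filter, scaling, variance moderation and left-out libraries.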

Additional observations from a re-analysis of the deposited data

Results flagged for a closer look

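In 8 of 80 groups of 5 libraries examined for the named genes, 1 library lay far from the other 4, and chance flags about 1 group in 20. For Srxn1, control 9 was at 53.91 TPM, below the other controls at 90.41 to 99.82 TPM. For Ugt1a6a, control 9 was at 6.19 TPM, above the others at 3.24 to 3.86 TPM. For Maff, control 7 was at 3.55 TPM, above 2.19 to 2.49 TPM. Control 3 was low for Rbx1 (94.21 TPM, others 100.18 to 101.7) and for Gpx1 (127.02 TPM, others 158.15 to 165.31). Of the miR-130a libraries, 15 was high for Gpx8 (8.81 TPM, others 5.51 to 5.98), 13 was high for Sesn2 (8.09 TPM, others 6.63 to 7.01) and 14 was low for Hvcn1 (3.01 TPM, others 5.54 to 6.54).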

How the results depend on the processing

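Nfe2l2 and Hmox1 were called lower in all 19 alternatives, with differences of −1.24 to −1.02 and −1.30 to −0.96. Srxn1 was called in 2 and Keap1 in 1, all without control 9, and Gclm was negative in 1 (range −0.05 to 0.20). Of 21 wider-list genes called and named by the rule above, 14 were called in every alternative that tested them. The other 7 were lost in at least 1 (Bach1, Gpx8, Sesn2, Prdx6, Sod3, Taldo1 and Abcc4). Of the 14, Maff, Trim21 and Ugt1a6a were tested in 18 alternatives, because the filter at a mean of 5 TPM left them out. Over the whole table, no filter on low values gave 1302 calls (1124 lower, 178 higher). Median-ratio scaling gave 1192 lower and 862 higher (42% higher, median 0.01), quantile normalization 1046 and 1071 (50.6%, median 0.05), and rescaling without mitochondrial genes 1347 and 488 (26.6%), beside 16.3% higher as deposited. The wider lists then held 2, 4 and 4 higher genes, 2 when rescaled to protein-coding genes and 2 without controls 7 and 9. Leaving out 1 library gave 1254 (without control 7) to 3421 (without control 9) calls, 1108 to 2922 lower and 146 to 499 higher, 2 to 4 members lower, and 22 to 31 wider-list genes lower and 1 to 4 higher. The cause was not tested. No paired analysis was possible because the groups share no replicate numbers. Depth is unknown, so counting error could not be separated from other spread.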
